A study of Homo sapiens with 6 samples.

Results

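This report describes the spliceosomal, hnRNP and SR protein genes in A549, an established line of human lung adenocarcinoma, after knockdown of FSCN1, which encodes the actin-bundling protein fascin. The genes were taken from the table of gene read counts by their symbol and by the gene type protein-coding. Symbols beginning with HNRNP, SNRP, SNRNP, SF3A, SF3B, U2AF, PRPF or LSM were kept, together with SF1 and the SRSF genes. This gave 94 of the 30230 genes in the table. By their known roles, 53 encode core proteins of the small nuclear ribonucleoproteins (snRNPs) and their partners, and 33 encode hnRNP or SR proteins, which regulate splice site choice. Another 6 encode LSm proteins outside the U6 ring, and 2 are a read-through gene (HNRNPUL2-BSCL2) and a gene with a pseudogene name (HNRNPA1P48).

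Polyadenylated RNA was sequenced in 3 control (NC) and 3 FSCN1-silenced (siFSCN1) libraries of this line, which the study calls biological replicates. The labels describe the NC cells as carrying a control plasmid, the study's methods name a scramble siRNA, and a single siRNA is named for the silenced libraries. The study's methods give 1 collection time for all transfected cells, and the labels do not state whether the cultures were separate, so the p-values measure the spread between these libraries, and the comparison rests on 1 siRNA. Library totals ranged from 27967301 to 36560919 counts in NC and from 30908982 to 32676062 in siFSCN1. Levels within a gene are given as CPM, the count scaled to library size with TMM factors, and errors of log2 fold changes (siFSCN1 against NC) are standard errors. FSCN1 had 211, 219.8 and 212 CPM in NC and 18.3, 11.8 and 13.2 CPM in siFSCN1. It was low in all 3 libraries labelled siFSCN1, with a log2 fold change of -3.89 ± 0.09 and an edgeR adjusted p of 8.10e-16. Summed FPKM of 5 epithelial markers was 3103 to 3482 in NC and 1752 to 2106 in siFSCN1. The keratins KRT8, KRT18 and KRT7 made up nearly all of these sums, and the other 2 markers were higher in siFSCN1, CDH1 at 25.9 to 26.7 against 9.02 to 9.41 FPKM and EPCAM at 4.09 to 4.51 against 2.8 to 3.34 FPKM. The sums of 2 endothelial markers (PECAM1, VWF) and of the 2 leukocyte markers with a row (of 3) were at or below 0.03 FPKM in every library, and that of 3 fibroblast markers (DCN, LUM, COL1A1) was 0.34 to 0.65. The part of these marker differences in the results below was not tested. In bulk RNA, fewer cells of a type and less RNA per cell cannot be told apart.

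The spliceosome removes introns from pre-mRNA. Its U1, U2, U4 and U5 snRNPs each carry a ring of Sm proteins, and U6 carries a ring of LSm proteins. The U1 snRNP marks the 5′ splice site, SF1, U2AF and the U2 snRNP mark the branch point and 3′ splice site, and the U4/U6.U5 tri-snRNP then joins to form the catalytic complex. SR proteins mostly promote exon inclusion from exonic enhancers, while hnRNP proteins coat nascent RNA and often repress exons, so the levels of both groups shape alternative splicing.

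Most of these genes were lower after FSCN1 silencing, nearly all by less than 2-fold. Of 93 members that passed the filter on low counts, 64 fell, 13 rose and 16 did not pass the test (edgeR quasi-likelihood test, Benjamini-Hochberg adjusted p under 0.05 over all 17076 genes tested). Over all tested genes 68.3% were called in either direction, 33.2% lower and 35.1% higher. Of the tested members, 82.8% were called, 68.8% lower and 13.98% higher. The median log2 fold change of the members was -0.33, against 0.03 over all genes tested. The remaining member, HNRNPCL1, was not tested, with 1 library above 0.

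Abundant transcripts fell more often than scarce ones over the whole table, so the members are also given by level. FPKM, which corrects a count for gene length and depth, was used to compare levels between genes. Of the 3132 tested genes at a mean of 10 FPKM or more, 65.7% were lower and 19.3% higher, with a median log2 fold change of -0.28. Among the 64 members at this level, 49 (76.6%) were lower and 7 higher, with a median of -0.36. Below 5 FPKM, 7 of 17 tested members (41.2%) were lower and 2 (11.8%) higher with a median of -0.05. Of all tested genes at that level, 21.5% were lower and 40.5% higher with a median of 0.19. The share of members called in either direction at 10 FPKM or more, 87.5%, was close to the 85.0% of all genes at that level.

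**Figure D1:**
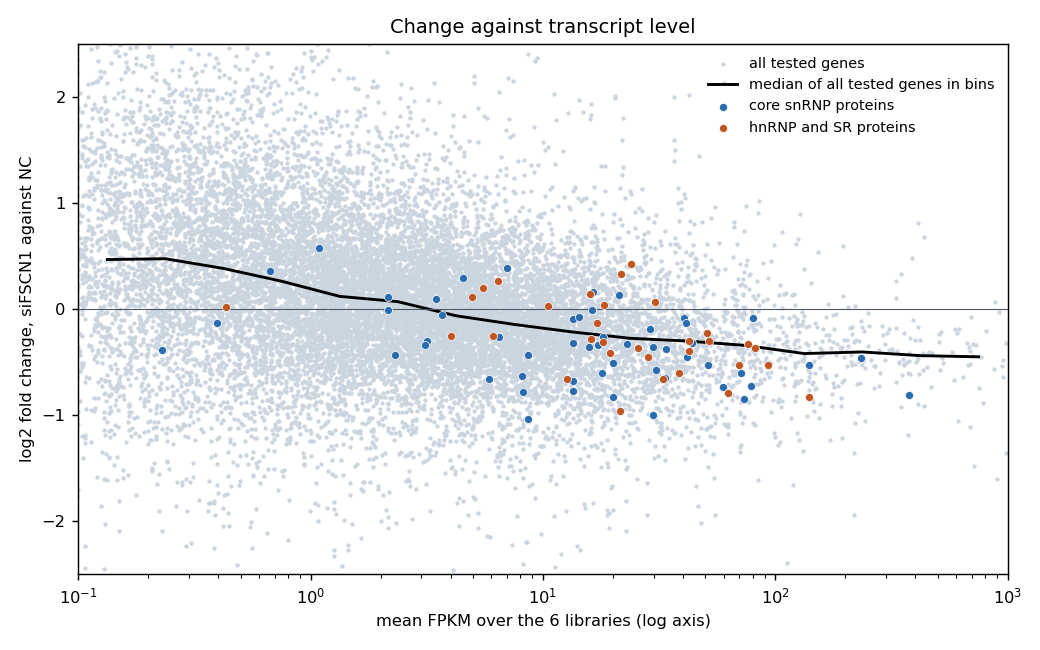
Log2 fold change of siFSCN1 against NC (vertical axis) by mean FPKM over the 6 libraries (horizontal log axis) for all tested genes (grey), core snRNP proteins (blue) and hnRNP and SR proteins (orange). The black line, the median of all tested genes in bins, falls from above 0 at low levels to below 0 at high levels, most members lie under it, and 1007 tested genes lie outside the plotted range.

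Core proteins and regulators both had medians below that of all genes. Of 53 core genes, 37 fell and 5 rose with a median log2 fold change of -0.36. Of 32 tested regulators, 22 fell and 5 rose with a median of -0.30. The difference of the medians, core minus regulators, was -0.06, with a standard deviation between libraries of 0.04. From 10 to under 30 FPKM the medians were -0.33 over 18 core genes, -0.28 over 13 regulators and -0.24 over all 2012 genes. From 30 to under 100 FPKM they were -0.53 over 13 core genes, -0.38 over 12 regulators and -0.32 over all 800 genes. At 100 FPKM or more, 3 core genes had a median of -0.53 and the single regulator, HNRNPAB, changed by -0.83. All 320 genes at that level had a median of -0.41, and 81.9% of them were lower. After the trend of fold change with abundance was removed, the medians relative to all genes were -0.20 for core genes and -0.03 for regulators, a difference of -0.17. In that fit 35 core genes were lower and 11 higher, and 13 regulators were lower and 10 higher. With library totals as the scale the counts were 30 and 12 for core genes and 17 and 9 for regulators. With the Sm and LSm2-8 rings alone as core, the difference was -0.16. In shares of all counts, core genes went from 0.606% ± 0.003 in NC to 0.508% ± 0.005 in siFSCN1, and regulators from 0.784% ± 0.014 to 0.7004% ± 0.016 (SD, n = 3).

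**Figure D2:**
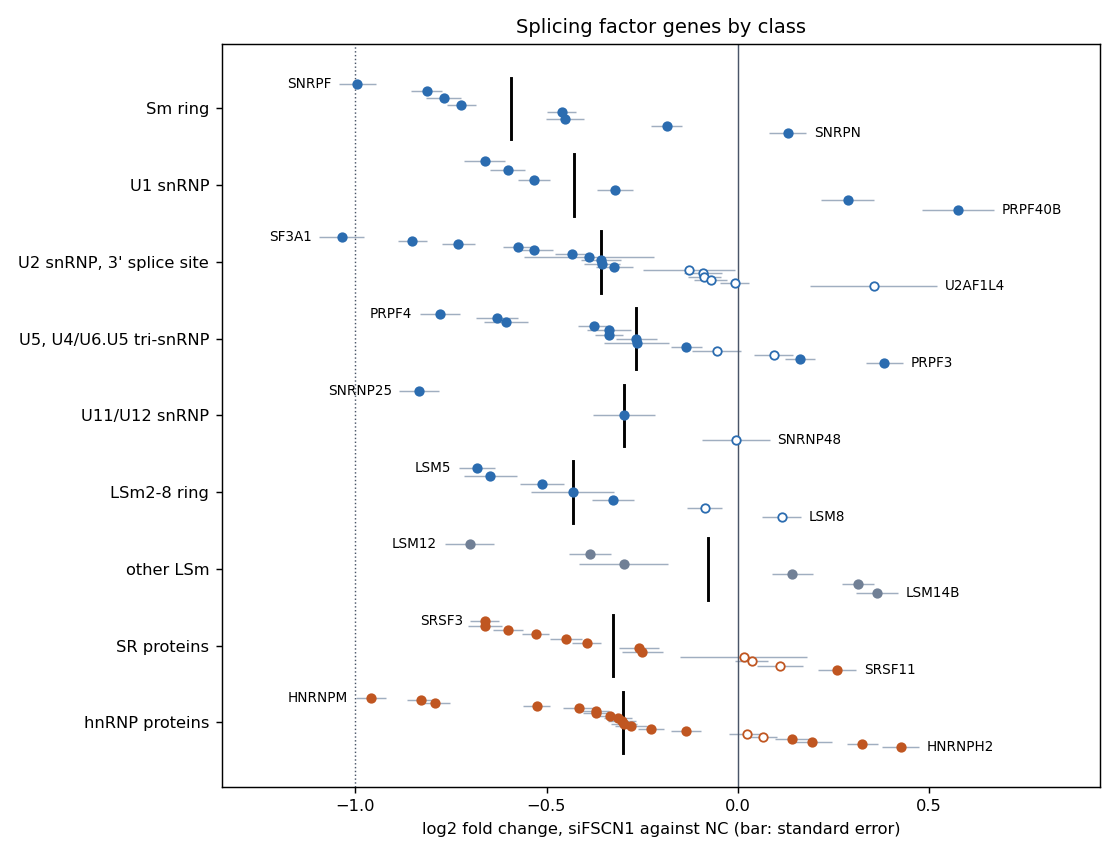
Log2 fold change with standard error for 91 tested members in 9 classes (core blue, other LSm grey, regulators orange). Filled points passed the edgeR test at an adjusted p under 0.05, open points did not, black bars are class medians, and SF3A1 alone lies beyond the dotted line, which marks a 2-fold fall.

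In the edgeR fit the Sm proteins were the class with the lowest median, but once the abundance trend was removed the LSm2-8 ring lay lower, at -0.39 relative to all genes against -0.34. The 7 canonical subunits, which close around the Sm site of the snRNAs, all fell, and their paralog SNRPN rose. The class median was -0.59, and -0.62 relative to all genes. The trimer of SNRPF, SNRPE and SNRPG is a unit of ring assembly. SNRPF had 146, 145 and 146 CPM in NC and 77.8, 73.5 and 67.98 CPM in siFSCN1. These groups did not overlap, and the siFSCN1 libraries lay at about 50.2% of the NC mean. Its log2 fold change was -0.99 ± 0.05 with an edgeR adjusted p of 2.77e-12. SNRPG had 208, 203 and 210.5 CPM in NC and 127, 126 and 124 CPM in siFSCN1, without overlap, and a change of -0.72 ± 0.04. SNRPE had 121, 111 and 127 CPM in NC and 88.6, 88.3 and 86.02 CPM in siFSCN1 and fell by less, -0.45 ± 0.05.

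SNRPB, encoding SmB and SmB′, had the highest FPKM of the members, 458 ± 7.64 in NC and 292 ± 16.8 in siFSCN1 (SD, n = 3). By mean CPM in NC, HNRNPA2B1 (861) and HNRNPA1 (740) were above SNRPB (736). SNRPB had 741, 725 and 743 CPM in NC and 437, 425 and 395 CPM in siFSCN1. All siFSCN1 libraries were below all NC libraries, and the log2 fold change was -0.81 ± 0.04 with an edgeR adjusted p of 3.72e-12. SNRPD1 changed by -0.77 ± 0.05 and its dimer partner SNRPD2 by -0.46 ± 0.04. SNRPD3 had 142, 144 and 144 CPM in NC and 127, 131 and 121 CPM in siFSCN1 and changed least, -0.19 ± 0.04, a fall that became 0.0013 with library totals alone as the scale and 0.03 once the abundance trend was removed.

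SNRPN encodes SmN, which replaces SmB in neurons. It had 81.6, 81.5 and 82.7 CPM in NC and 94.7, 90.6 and 83.9 CPM in siFSCN1. The siFSCN1 values lay above the NC values by a narrow gap, with a log2 fold change of 0.13 ± 0.05 and an edgeR adjusted p of 0.0228. This call was lost under DESeq2, under RLE scaling and without any 1 of 5 libraries (NC replicates 1, 2 and 3 and siFSCN1 replicates 1 and 2), where the change was 0.08 to 0.13. The gene overlaps SNURF and SNHG14 on the same strand, so its reads cannot be assigned to it with certainty. The log2 ratio of SNRPB to SNRPN within a library was 3.18, 3.15 and 3.17 in NC and 2.20, 2.23 and 2.24 in siFSCN1. The ratio changed by -0.94. A scale factor per library cannot alter this difference, but removal of the abundance trend can, since the genes differ in level.

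**Figure D3:**
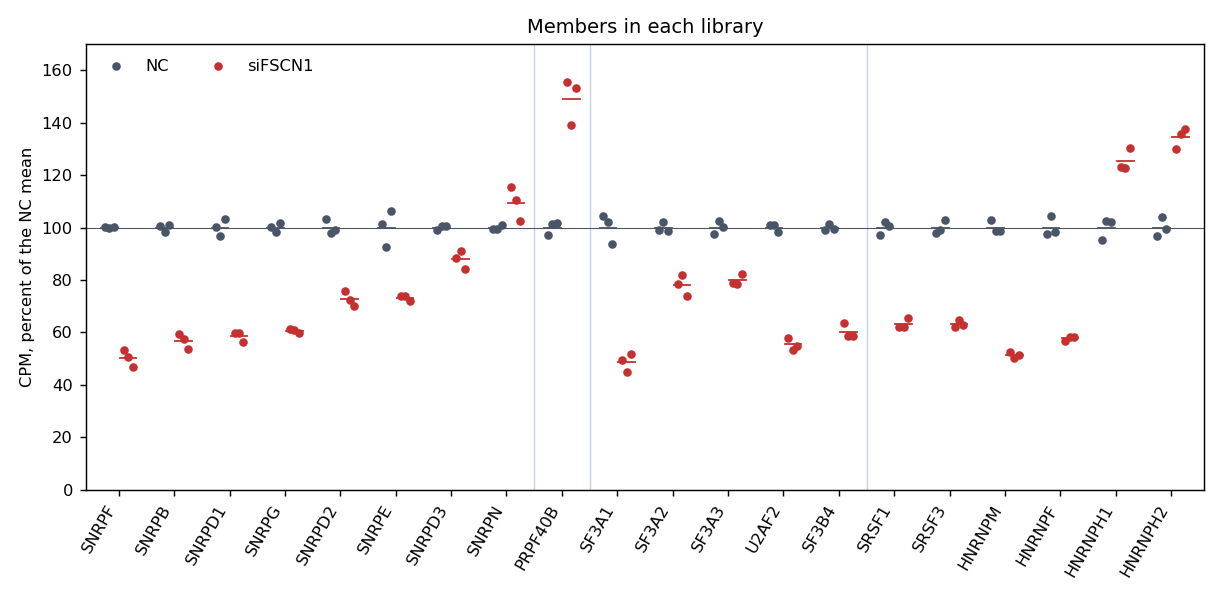
CPM of 20 members in each library as a percent of that gene's NC mean (points are libraries, short lines are group means, 3 libraries per group; NC grey, siFSCN1 red). SNRPF, SF3A1 and HNRNPM lie near 50% in all siFSCN1 libraries, while PRPF40B, HNRNPH1 and HNRNPH2 lie above every NC library.

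The 3 specific subunits of the U1 snRNP fell, while the U1-associated factors PRPF40B and PRPF39 rose. SNRPC, which stabilises pairing with the 5′ splice site, had 133, 126 and 127 CPM in NC and 87.2, 87.5 and 79.3 CPM in siFSCN1 and a log2 fold change of -0.60 ± 0.05. SNRNP70, the platform that SR proteins contact, changed by -0.53 ± 0.04. SNRPA, which binds a stem loop of U1 snRNA, changed by -0.32 ± 0.05, a call that was lost in both limma fits (-0.16 and -0.15). The NC and siFSCN1 ranges of all 3 were apart.

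PRPF40B had 9.34, 9.76 and 9.79 CPM in NC and 14.97, 13.4 and 14.7 CPM in siFSCN1. It was higher in every siFSCN1 library, with a log2 fold change of 0.58 ± 0.10 and an edgeR adjusted p of 3.22e-05. The gene was scarce, at 0.81 FPKM in NC and 1.36 FPKM in siFSCN1. PRPF39, another U1-associated factor, rose by 0.29 ± 0.07, with 23.1, 23.97 and 23.8 CPM in NC and 25.1, 30.3 and 31.2 CPM in siFSCN1.

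In the edgeR fit no member of the U2 and 3′ splice site class was called higher. Of its 16 genes 10 fell and 6 did not pass the test, with a median of -0.36, and -0.39 relative to all genes, which became -0.20 when the abundance trend was removed. U2AF1L4 was scarce, with 1.97, 1.97 and 2.02 CPM in NC and 2.70, 2.58 and 2.35 CPM in siFSCN1. Its groups did not overlap, but its change of 0.36 ± 0.17 was not called (edgeR adjusted p 0.0663). SF3A1, an SF3a subunit of the U2 snRNP, was the only member called at 2-fold. It had 92.5, 90.5 and 83.2 CPM in NC and 43.99, 39.9 and 45.9 CPM in siFSCN1, a log2 fold change of -1.04 ± 0.06 and an edgeR adjusted p of 2.10e-11. Over all tested genes 4.85% were called at 2-fold lower and 16.5% at 2-fold in either direction. The siFSCN1 libraries did not reach the NC range. SNRPF at -0.99 and HNRNPM at -0.96 lay just outside the threshold, and which member crossed it changed with the fit: SNRPF joined SF3A1 under 7 of 16 alternatives (DESeq2, RLE scaling, no filter, and without NC replicate 1, 2 or 3 or siFSCN1 replicate 1), replaced it without siFSCN1 replicate 2, and no member crossed it under 5 others.

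SF3A1 also fell by more than its partners in SF3a. SF3A2 changed by -0.36 ± 0.05 and SF3A3 by -0.32 ± 0.05. The log2 ratio of SF3A1 to SF3A3 was 0.44, 0.34 and 0.25 in NC and -0.33, -0.46 and -0.33 in siFSCN1, a change of -0.72 without overlap. Against SF3A2 the change was -0.68, also without overlap.

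SF3b subunits were uneven in the same way. SF3B4, which binds RNA upstream of the branch point, had 151, 154 and 152 CPM in NC and 96.8, 89.5 and 89.2 CPM in siFSCN1 and changed by -0.73 ± 0.04. SF3B5 changed by -0.53 ± 0.05. SF3B1, the scaffold that encloses the branch point, had 173, 189 and 181 CPM in NC and 167, 169 and 180.5 CPM in siFSCN1, with overlapping groups, a log2 fold change of -0.07 ± 0.04 and an edgeR adjusted p of 0.154. SF3B2 (-0.01 ± 0.04) and SF3B6 (-0.09 ± 0.04) also missed the threshold. The log2 ratio of SF3B4 to SF3B6 fell by 0.64 from NC to siFSCN1, without overlap. SF3B1 was called lower without NC replicate 1 and without siFSCN1 replicate 3 (both -0.11). Its estimate turned positive, between 0.05 and 0.17, under library totals, upper quartile scaling, both limma fits and removal of the abundance trend.

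Of the proteins that first recognise the 3′ end of the intron, U2AF2 reads the polypyrimidine tract and SF1 the branch point. U2AF2 had 474, 474 and 463 CPM in NC and 272, 252 and 258 CPM in siFSCN1. Every siFSCN1 library was far below the NC range, with a log2 fold change of -0.85 ± 0.04 and an edgeR adjusted p of 9.88e-13. SF1 had 260.2, 265 and 261 CPM in NC and 182, 170.3 and 175 CPM in siFSCN1 and a change of -0.58 ± 0.04. U2AF1, which reads the terminal AG, was counted at only 3.15, 3.11 and 4.09 CPM in NC and 2.85, 2.095 and 3.002 CPM in siFSCN1. Its call (-0.39 ± 0.17, edgeR adjusted p 0.0497) was lost under 8 alternatives, among them without NC replicate 3 and without siFSCN1 replicate 2 (both -0.25). Its copy U2AF1L5 in GRCh38 is nearly identical, and reads shared by both may not have been counted. SNRPA1, a U2-specific protein, had 61.3, 57.6 and 63.3 CPM in NC and 57.7, 55.6 and 57.9 CPM in siFSCN1, with overlapping groups and a change of -0.09 ± 0.05 (edgeR adjusted p 0.122), and was called lower only without NC replicate 2 (-0.14).

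In the U5 and tri-snRNP class, grouped here with the other PRPF factors, 9 of 13 genes fell and 2 rose with a median of -0.26, and -0.30 relative to all genes, which became -0.14 when the abundance trend was removed. PRPF4 and PRPF3 are partners on the U4/U6 duplex, and they changed in opposite directions. PRPF4 had 54.3, 54.7 and 55.8 CPM in NC and 33.1, 32.7 and 30.2 CPM in siFSCN1, lower in all siFSCN1 libraries (-0.78 ± 0.05, edgeR adjusted p 2.73e-10). PRPF3 had 38.6, 39.8 and 38.03 CPM in NC and 50.03, 50.3 and 51.6 CPM in siFSCN1, higher in all of them (0.38 ± 0.05, edgeR adjusted p 1.60e-06).

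The U5 proteins also differed. PRPF8, the scaffold of the catalytic centre, had 261, 262 and 256 CPM in NC and 201, 207 and 209 CPM in siFSCN1 and changed by -0.34 ± 0.04. SNRNP200, the helicase that unwinds U4 from U6, had 203, 210.2 and 202 CPM in NC and 219, 234 and 236 CPM in siFSCN1 and rose by 0.16 ± 0.04. SNRNP40 fell, with a change of -0.63 ± 0.06. PRPF19, a ubiquitin ligase that acts in spliceosome activation, changed by -0.38 ± 0.04. The fall of PRPF8 did not pass the test once the abundance trend was removed, at -0.07.

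Of the U11/U12 proteins of the minor spliceosome, SNRNP25 had 66.9, 71.4 and 69.1 CPM in NC and 40.5, 37.5 and 38.4 CPM in siFSCN1 and fell by the largest amount, -0.83 ± 0.05. SNRNP35 changed by -0.30 ± 0.08, a call that was lost with library totals, upper quartile scaling and both limma fits, where the change was -0.18 to -0.10. SNRNP48, with 13.6, 15.4 and 15.9 CPM in NC and 14.4, 14.4 and 16.04 CPM in siFSCN1, showed overlapping groups and no call (-0.0046 ± 0.09).

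The LSm2-8 ring binds the 3′ tail of U6 snRNA. Of its 7 genes 5 fell and none rose, with a median of -0.43. LSM5 had 89.98, 95.9 and 95.4 CPM in NC and 60.99, 56.8 and 57.6 CPM in siFSCN1 and a log2 fold change of -0.68 ± 0.05. LSM2 had 55.2, 49.03 and 52.02 CPM in NC and 37.1, 33.04 and 29.7 CPM in siFSCN1 and a change of -0.65 ± 0.07. LSM4 had 143, 137 and 143 CPM in NC and 141, 134 and 124 CPM in siFSCN1, which overlapped, with a change of -0.09 ± 0.05 and an edgeR adjusted p of 0.107, and was called lower without siFSCN1 replicate 1 (-0.15) but higher with library totals (0.10) and with the abundance trend removed (0.13). LSM8, the subunit that sets the nuclear ring apart from the cytoplasmic one, changed by 0.12 ± 0.05 and was not called (edgeR adjusted p 0.0516). LSM1, which takes the place of LSM8 in the cytoplasmic mRNA decay ring, rose by 0.14 ± 0.05.

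The other LSm proteins divided evenly, with 3 lower and 3 higher. LSM12 had 30.5, 34.6 and 29.6 CPM in NC and 18.1, 19.5 and 20.5 CPM in siFSCN1 and a change of -0.70 ± 0.07, the largest fall among them. LSM10 and LSM11 of the U7 snRNP, which processes histone mRNA 3′ ends, changed by -0.39 ± 0.06 and -0.30 ± 0.12. The P-body proteins LSM14A and LSM14B rose. LSM14A had 126, 133 and 138 CPM in NC and 164, 165 and 166 CPM in siFSCN1, a change of 0.32 ± 0.04 without overlap, and LSM14B changed by 0.36 ± 0.05.

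Among the 12 SR proteins 8 fell and 1 rose, with a median of -0.33, and -0.36 relative to all genes, which became -0.16 when the abundance trend was removed. SRSF3 and SRSF1, both known as oncogenic when overexpressed, fell most. SRSF1 had 105, 110.3 and 109 CPM in NC and 67.2, 66.9 and 70.8 CPM in siFSCN1, a log2 fold change of -0.66 ± 0.04 and an edgeR adjusted p of 2.88e-10. SRSF3 had 337, 341 and 354 CPM in NC and 214, 223 and 216 CPM in siFSCN1 and a change of -0.66 ± 0.04. The ranges of both were apart. SRSF7 changed by -0.60 ± 0.04 and SRSF2, the most abundant SR gene at 104 FPKM in NC, by -0.53 ± 0.04.

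SRSF5 had 111, 115 and 119 CPM in NC and 117, 113 and 122 CPM in siFSCN1, with overlapping groups and no call (0.04 ± 0.04, edgeR adjusted p 0.474). SRSF11 was the only SR gene that rose, with 55.96, 57.7 and 60.4 CPM in NC and 68.1, 67.7 and 72.7 CPM in siFSCN1 (0.26 ± 0.05, edgeR adjusted p 1.66e-04). With trend removal, library totals, upper quartile scaling or limma, SRSF5 was called higher, at 0.15 to 0.24. The rise of SRSF11 was 0.22 to 0.45 over the alternatives, the highest with library totals, where SRSF1 and SRSF3 both changed by -0.47.

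Of 20 tested hnRNP genes 14 fell and 4 rose, with a class median of -0.30, and -0.33 relative to all genes, which became 0.01 when the abundance trend was removed. HNRNPM had 197, 189 and 189 CPM in NC and 101, 96.4 and 98.1 CPM in siFSCN1. Its siFSCN1 libraries lay at about 51.4% of the NC mean, with a log2 fold change of -0.96 ± 0.04 and an edgeR adjusted p of 3.60e-13. HNRNPAB had the highest FPKM of the hnRNP genes, 172 in NC. By mean CPM in NC, which is not corrected for gene length, 5 were above HNRNPAB (458). They were HNRNPA2B1 (861), HNRNPA1 (740), HNRNPC (719), HNRNPK (518) and HNRNPU (478). HNRNPAB had 451, 465 and 457 CPM in NC and 261, 253 and 259 CPM in siFSCN1 and a change of -0.83 ± 0.04. HNRNPC, which binds uridine tracts of nascent RNA, changed by -0.53 ± 0.03. HNRNPM, HNRNPAB and HNRNPC showed no overlap between groups.

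Other abundant hnRNP genes changed less. HNRNPA1, a repressor of exon inclusion, had 736, 748 and 736 CPM in NC and 581, 561 and 573 CPM in siFSCN1 and a change of -0.37 ± 0.03. HNRNPA2B1 changed by -0.30 ± 0.04, HNRNPK by -0.33 ± 0.04 and HNRNPU by -0.13 ± 0.04. All 4 passed the edgeR test, yet with the abundance trend removed HNRNPA1 and HNRNPK were not called, and HNRNPA2B1 (0.04) and HNRNPU (0.18) had positive estimates. HNRNPU also had positive estimates of 0.03 to 0.05 with limma and with library totals. HNRNPA1 has 74 named pseudogenes in the annotation, and 8 members have 5 or more, so reads of these genes may have been split or dropped. HNRNPA1P48, whose name marks it as such a copy, changed by -0.62 ± 0.14, and the read-through gene HNRNPUL2-BSCL2 by -0.16 ± 0.05, an estimate that turned to 0.03 with library totals and with the trend removed.

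The HNRNPF and HNRNPH proteins bind the same G-rich elements, and their genes changed in opposite directions. HNRNPF, chosen after its values were seen, had 305, 327 and 308 CPM in NC and 178, 182 and 183 CPM in siFSCN1. HNRNPH1 had 205, 219.9 and 219 CPM in NC and 264, 264 and 279.9 CPM in siFSCN1. HNRNPH2 had 53.7, 57.6 and 55.03 CPM in NC and 72.04, 75.2 and 76.3 CPM in siFSCN1. HNRNPF fell, with a change of -0.79 ± 0.04, while HNRNPH1 (0.33 ± 0.04, edgeR adjusted p 1.10e-06) and HNRNPH2 (0.43 ± 0.05, edgeR adjusted p 3.50e-07) rose, and HNRNPH3 rose slightly (0.14 ± 0.05).

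By FPKM HNRNPF was above HNRNPH1 in both groups, at 76.1 against 17.997 FPKM in NC and 49.3 against 25.3 FPKM in siFSCN1. This order depends on the gene length used, and the annotated exons cover 3273 bases in HNRNPF and 9480 in HNRNPH1. The log2 ratio of HNRNPF to HNRNPH1 by CPM was 0.58, 0.57 and 0.49 in NC and -0.57, -0.53 and -0.61 in siFSCN1. Against HNRNPH2 it went from 2.499 ± 0.01 to 1.28 ± 0.02 (SD, n = 3). HNRNPH2 shares its locus with the read-through gene RPL36A-HNRNPH2 on the same strand, so part of its reads could be counted to either.

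**Figure D4:**
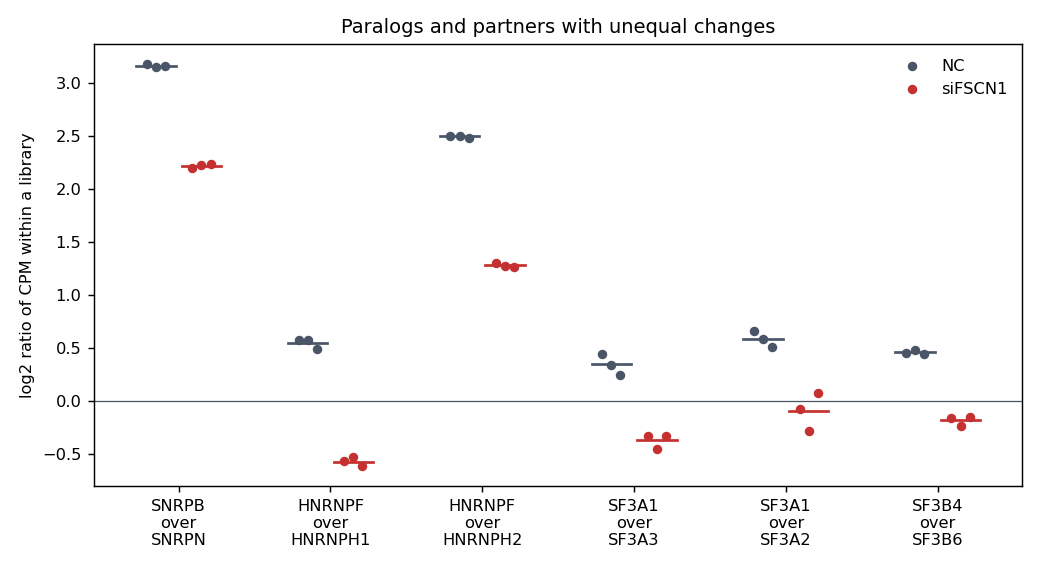
Log2 ratio of the CPM of 2 members within each library for 6 pairs chosen after their values were seen (points are libraries, lines are group means; NC grey, siFSCN1 red). The siFSCN1 ratios lie below the NC ratios in all 6 pairs with no overlap, a change of -0.64 to -1.22. The gene that fell more is the first of each pair, so this direction follows from the choice. Of pairs not shown, U2AF2 over U2AF1 changed by -0.46 with overlapping groups, and LSM2 over LSM4 by -0.56 without overlap. The heights of different pairs cannot be compared because CPM is not corrected for gene length.

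Promoter sequences of the members were also compared. RefSeq promoters of GRCh38.p14, from 250 bases before to 50 bases after the start, were found for 80 of 94 members. Short motifs were searched on both strands as exact letters, and none of them contains another. The ETS motif CCGGAAGT was in 13 of 44 core promoters (29.5%) and 3 of 31 regulator promoters (9.68%). It was in 4.44% of all 27305 promoters and in 11.9% of the 2381 promoters of tested genes at 10 FPKM or more. The motif was in 12 of 56 promoters of lower members and in 0 of 9 promoters of higher ones, and in 4 of 14 promoters of members not called. Over all tested genes at 10 FPKM or more it was in 12.4% of lower and 9.5% of higher ones.

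The E-box CACGTG showed the opposite split, with 2 of 44 core promoters (4.55%) against 7 of 31 regulator promoters (22.6%), and 11.2% at 10 FPKM or more over all tested genes. The TATA box letters TATAAA were in 1 of 44 core and 5 of 31 regulator promoters. The GC box GGGCGG was in 65% of members' promoters, below the 74.3% of tested genes at 10 FPKM or more, and the CCAAT letters were in 47.5% against 39.7%. A match to these letters is a description and was not tested as a binding site.

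The promoters of the members with the largest core falls, SF3A1 and SNRPF, are shown beside those of HNRNPM, the regulator that fell most, and HNRNPH2, the regulator that rose most. Capitals mark matches to the motifs named above and, in SF3A1, to the YY1 motif AAGATGGC on the opposite strand, which 6.25% of members' promoters and 7.18% of all promoters of tested genes at 10 FPKM or more held. SF3A1 holds a GC box, an ETS and a YY1 match (chr22:30356845-30357144, minus strand). SNRPF holds a GC box and CCAAT boxes (chr12:95858702-95859001, plus strand). HNRNPM holds 1 E-box (chr19:8444725-8445024, plus strand), and HNRNPH2 holds CCAAT boxes, a GC box and E-boxes (chrX:101407972-101408271, plus strand).
SF3A1: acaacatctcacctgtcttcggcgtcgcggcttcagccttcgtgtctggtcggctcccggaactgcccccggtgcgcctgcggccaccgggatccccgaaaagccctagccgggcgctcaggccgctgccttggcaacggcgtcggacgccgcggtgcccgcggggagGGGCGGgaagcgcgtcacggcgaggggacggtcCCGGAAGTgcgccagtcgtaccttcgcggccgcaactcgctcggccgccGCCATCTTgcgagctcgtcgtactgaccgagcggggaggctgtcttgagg
SNRPF: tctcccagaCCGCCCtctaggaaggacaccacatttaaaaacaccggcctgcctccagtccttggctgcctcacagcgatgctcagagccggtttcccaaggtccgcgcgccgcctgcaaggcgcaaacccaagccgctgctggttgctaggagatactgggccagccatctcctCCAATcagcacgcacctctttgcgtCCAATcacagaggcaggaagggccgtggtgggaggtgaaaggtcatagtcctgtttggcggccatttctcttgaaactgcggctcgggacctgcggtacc
HNRNPM: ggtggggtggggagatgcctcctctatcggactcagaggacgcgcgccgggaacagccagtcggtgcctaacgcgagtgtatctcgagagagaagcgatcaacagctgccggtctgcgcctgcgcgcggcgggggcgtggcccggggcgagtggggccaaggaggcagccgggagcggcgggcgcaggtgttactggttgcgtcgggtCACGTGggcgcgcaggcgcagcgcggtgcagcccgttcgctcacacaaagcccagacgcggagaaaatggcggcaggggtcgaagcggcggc
HNRNPH2: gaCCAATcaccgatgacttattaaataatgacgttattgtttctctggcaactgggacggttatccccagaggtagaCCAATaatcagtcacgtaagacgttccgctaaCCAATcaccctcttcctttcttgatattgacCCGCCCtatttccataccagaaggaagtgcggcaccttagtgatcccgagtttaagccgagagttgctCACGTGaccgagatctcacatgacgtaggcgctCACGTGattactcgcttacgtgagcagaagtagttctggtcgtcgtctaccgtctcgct

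The siRNA named for these libraries targets the 3′ UTR of FSCN1 (chr7:5605786-5605804, plus strand, GRCh38). Bases 2 to 8 of its guide strand, the seed, can pair with other transcripts, and the pairing letters in the target are CTCTGGA. They were searched in the longest annotated 3′ UTR of each gene. Of 92 members with such a UTR, 12 (13%) held a match, against 22.6% of 13496 tested genes. The longest UTR can belong to a transcript that stops early, so a match may lie outside the 3′ UTR of the main transcript. For PRPF8 and HNRNPA1, both with a match, the UTRs used were 6874 and 3125 bases. Which transcripts the cells express was not tested. The median log2 fold change was -0.35 in members with a match and -0.32 in those without, and over all genes -0.09 with and -0.0035 without. Core genes had -0.26 with a match (8 genes) and -0.37 without, and regulators -0.37 (4 genes) and -0.29.

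SF3A1, the member with the largest fall, was the only one with 2 matches (chr22:30334377-30334395 and chr22:30332478-30332496, minus strand). LSM2, which also fell, held 1 (chr6:31797495-31797513, minus strand), and SNRNP200, which rose, held 1 (chr2:96274843-96274861, minus strand). The target in FSCN1 and the 19 bases at each of these places are shown with the letters that pair with the seed in capitals.
FSCN1: gagccttatttCTCTGGAa
SF3A1 first site: tctaagccactCTCTGGAa
SF3A1 second site: gccagtgagtgCTCTGGAa
LSM2: tctcactacttCTCTGGAg
SNRNP200: tcccttgctcaCTCTGGAt

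The part of these matches in the fall of SF3A1 was not tested, and no library made with another siRNA was analysed here.

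Other genes of the splicing pathway gave the setting for the members. In 7 lists outside the symbol rule, 135 of 137 genes were tested. Of these, 81 (60%) fell and 27 (20%) rose, with a median log2 fold change of -0.23 and a median level of 7.67 FPKM in NC. Over all tested genes 33.2% were lower and 35.1% higher. At 5 FPKM or more 59.1% of all tested genes were lower and 23.2% higher, with a median of -0.22, close to the listed genes. With library totals as the scale 51 of the listed genes were lower and 40 higher. The lists were not alike. Of 18 genes for snRNP assembly, in which the SMN and Gemin proteins and pICln load the Sm ring, 15 (83.3%) fell and 1 rose. Of the 15, 3 fell at least 2-fold, where 4.85% of all tested genes were called at 2-fold lower. SNUPN, the snRNP import adaptor, was the gene that rose (0.28 ± 0.09), and its call was lost without NC replicate 3 (0.25) and with the abundance trend removed (0.18). GEMIN4 had 66.5, 68.7 and 64.1 CPM in NC and 24.7, 23.4 and 22.98 CPM in siFSCN1 (-1.49 ± 0.05, edgeR adjusted p 5.97e-14). CLNS1A, which encodes pICln and is named here after its values were seen, had 89.5, 91.8 and 89.2 CPM in NC and 34.5, 31.9 and 33.8 CPM in siFSCN1 (-1.43 ± 0.05). The median of this list, -0.43, lay near that of the LSm2-8 ring.

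In the list of PRPF19-associated and B/C complex factors 24 of 34 genes fell and 1 rose. BUD31, a factor of the activated spliceosome, had 109.8, 113 and 111 CPM in NC and 38.7, 34.9 and 36.1 CPM in siFSCN1 and the largest fall of any listed gene, -1.60 ± 0.05. WBP4 was the gene that rose (0.70 ± 0.11). Of 11 spliceosomal helicases 6 fell and 3 rose, with DHX16 at -0.96 ± 0.06 and DDX42 at 0.41 ± 0.05. In the exon junction complex 4 of 7 fell, with EIF4A3 at -0.92 ± 0.04, and CASC3 rose (0.43 ± 0.05).

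The remaining lists were more mixed. Of 19 SR-related proteins and SR kinases 8 fell and 7 rose. SCAF1 changed by -1.01 ± 0.05, and by less than 2-fold without siFSCN1 replicate 3 (-0.99) and under 6 other alternatives (-0.98 to -0.80). The SR kinase SRPK1 changed by -0.32 ± 0.05, a call that was lost in both limma fits (-0.15 and -0.14), and the SR kinase CLK1 rose by 0.41 ± 0.05, with 23.3, 24.6 and 24.8 CPM in NC and 30.8, 33.1 and 32.8 CPM in siFSCN1. Of 37 other splicing regulators 22 fell and 9 rose. KHSRP changed by -1.13 ± 0.05 and RBM4 by 0.67 ± 0.12. PTBP1, the polypyrimidine tract repressor, changed by -0.24 ± 0.04, and its call was lost with library totals and both limma fits, and its estimate was 0.05 with the abundance trend removed. Minor spliceosome proteins outside the symbol rule were the only list with more rises (5) than falls (2) among 9 genes. ARMC7 changed by -0.89 ± 0.06, and CENATAC rose, with 8.62, 10.1 and 11.2 CPM in NC and 19.3, 20.3 and 21.2 CPM in siFSCN1 (1.02 ± 0.09), by less than 2-fold without NC replicate 1 (0.92) or siFSCN1 replicate 3 (0.98), under DESeq2 (0.99), with the trend removed (0.96) and with limma on log2(FPKM + 1) (0.83).

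**Figure D5:**
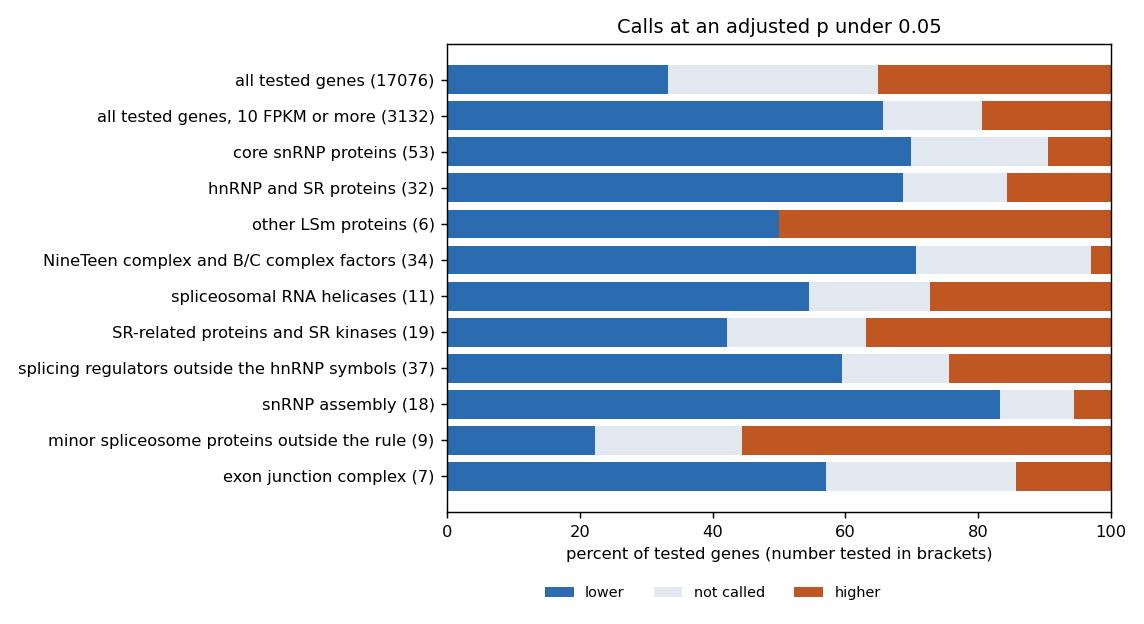
Percent of tested genes called lower (blue), higher (orange) or not called (grey) by edgeR at an adjusted p under 0.05, for all tested genes, those at 10 FPKM or more, the member groups and the 7 lists outside the symbol rule. Core proteins and regulators at any level show 69.8% and 68.8% lower, against 33.2% of all tested genes. At 10 FPKM or more, 65.7% of all tested genes and 76.6% of the 64 members (not drawn) were lower.

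The counts of members were sensitive to the scale between libraries. With library totals alone, 50 members were lower and 24 higher, in place of 64 and 13, and the median of all genes tested moved from 0.03 to 0.22. With upper quartile scaling 56 were lower and 21 higher. The CPM ranges of 82 of 93 members did not overlap between groups, where 71.3% of all genes tested and 85.9% of those at 10 FPKM or more did not.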

How the data were processed

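Polyadenylated RNA of A549 cells was sequenced in 3 NC and 3 siFSCN1 libraries, from a strand-marking (dUTP) kit per the labels. In the study's methods, the authors trimmed reads with the FASTX Toolkit and aligned them to GRCh38 with HISAT2, while the submitters' processing notes name TopHat2. The deposited counts are whole reads per gene (30230 genes), and the deposited FPKM values, which the authors computed from uniquely mapped reads, cover 29899 genes. Whether counting used the strand is not given in the sources used here, and 39 members overlap a gene on the opposite strand, from which reads could not then be told apart.

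The counts were fitted over the whole table with edgeR 4.0.16 (R 4.3.3; TMM factors, filterByExpr, quasi-likelihood F test, Benjamini-Hochberg over 17076 genes, adjusted p under 0.05). Library totals were 27967301 to 36560919 counts. FPKM was used only for levels and for limma 3.58.1 on log2(FPKM + 0.1) and log2(FPKM + 1). Alternatives were DESeq2 1.42.0, RLE and upper quartile scaling, library totals, filters, a loess trend with abundance (span 0.5), a replicate block and leaving out each library. The fit was tested on simulated counts in which a small share of genes changed, evenly in both directions. That test does not cover the choice of scale between libraries. Medians of gene groups have no test.

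The members, classes and lists were chosen with earlier results of these data known. Named genes were the 2 largest called rises and falls per class, any member at 2-fold, the 5 with the highest FPKM, a list of textbook members, and in each outside list the largest called rise and fall. Any others (HNRNPF, HNRNPH3, SF3A2, SF3B2, SF3B4, SF3B6, U2AF1L4, SNRNP48, LSM1, LSM8, LSM11, CLNS1A) were added after their values were seen. Promoters are from RefSeq (GRCh38.p14), gene models and 3′ UTRs from GENCODE release 44. Sample numbers were not taken to pair the groups. Correlations between same-numbered libraries were -0.03, 0.04 and -0.08, which cannot show whether the cultures were paired. The named results of 1 member are not reported here.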

Additional observations from a re-analysis of the deposited data

How the results depend on the processing

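Of the 93 tested members, 0 changed call with the replicate block, which left the counts of 64 lower and 13 higher members as they were, with SF3A1 at 2-fold. The same numbers were not taken to pair the libraries, so no paired value is given for other results. Leaving out 1 library changed 2 to 5 calls, and the number of members at 2-fold lower was 1 to 2. It was 2 under DESeq2, RLE scaling and no filter, and 0 with the abundance trend removed, library totals, upper quartile scaling and both limma fits. Higher members numbered 24 with the trend removed and with library totals, and 21 with upper quartile scaling and both limma fits. Of these, core genes gave 11, 12, 9, 9 and 9, and regulators 10, 9, 9, 9 and 9, for trend removal, library totals, upper quartile scaling and the limma fits with pseudocounts of 0.1 and 1. Lower regulators numbered 13 with the trend removed. Lower genes outside the symbol rule numbered 51 with library totals and 52 with both limma fits.

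Relative to all genes, the core and regulator medians (-0.39 and -0.33) moved to -0.20 and -0.030 with the trend removed, -0.34 and -0.30 with limma on log2(FPKM + 0.1), -0.24 and -0.21 with log2(FPKM + 1), and -0.35 and -0.29 with the stricter filter. Core minus regulators moved to -0.17 with the trend removed and -0.16 with the rings alone as core. The cause was not tested.

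Estimates changed sign as follows. With the trend removed they were the median of all genes -0.025, the hnRNP class median 0.013, HNRNPA2B1 0.044, HNRNPU 0.18, HNRNPUL2-BSCL2 0.029, LSM4 0.13, SF3B1 0.17, SNRPA1 0.054, SNRPD3 0.033 and PTBP1 0.046. With library totals they were HNRNPU 0.053, HNRNPUL2-BSCL2 0.026, LSM4 0.10, SF3B1 0.12, SNRPA1 0.097 and SNRPD3 0.0013. With limma on log2(FPKM + 0.1) they were HNRNPU 0.031, HNRNPUL2-BSCL2 0.0025, LSM4 0.079, SF3B1 0.095 and SNRPA1 0.077. With limma on log2(FPKM + 1) they were the other LSm class median 0.033, HNRNPU 0.029, HNRNPUL2-BSCL2 0.0025, LSM4 0.077, SF3B1 0.089 and SNRPA1 0.072. With upper quartile scaling they were LSM4 0.032, SF3B1 0.047 and SNRPA1 0.027. SRSF5 was -0.0016 without siFSCN1 replicate 3, and 0.056 at the other end of the range over left-out libraries.

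What depth limits was not tested for single members. U2AF1 was counted at 2.1 to 4.09 CPM.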
